A study of Mus musculus with 8 samples.

Results

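Chemokine ligands and their receptors were followed in whole liver of mice with diet-induced steatohepatitis. Members were taken by their symbols, as genes named Ccl, Cxcl, Cx3cl or Xcl (ligands) and Ccr, Cxcr, Cx3cr, Xcr or Ackr (receptors) followed by a number, and 60 of the 16796 genes in the files met the rule, 38 of them ligands and 22 of them receptors. RNA was sequenced from 4 mice labelled as liver-specific knockouts of E4bp4 (E4bp4-LKO, mice 143, 144, 145 and 179) and from 4 wild-type mice (WT, mice 164, 165, 166 and 167). Mice of both genotypes ate the same NASH diet for 20 weeks from 2 months of age, so all groups carry diet-induced disease and no liver of chow-fed mice enters the comparison. The sources used here do not give the Cre driver or the deleted exons behind E4bp4-LKO, nor the strain, sex and litter of the animals. The comparison asks how liver RNA differs when E4BP4, a transcription factor of the PAR-related bZIP family encoded by Nfil3, is deleted in the liver of such mice. Values per liver are always listed in the order of the mouse numbers above.

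Chemokines are small secreted proteins that steer leukocytes along concentration gradients by binding G protein-coupled receptors on those cells. They are grouped as CC, CXC, CX3C and XC by the spacing of their first cysteines, and most receptors bind several ligands of 1 family. Atypical receptors (Ackr) bind chemokines without G protein signalling and act as scavengers or transporters. In fatty liver disease the Ccl2 and Ccr2 axis is known for drawing monocytes from blood into the liver, where they become macrophages.

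Deposited expected counts summed to 23805540 to 32290265 per E4bp4-LKO library and 28477075 to 30200874 per WT library. Levels are given as CPM (counts scaled to the library size) after TMM scaling, which corrects for library composition and whose factors were 0.9406 to 0.9629 in E4bp4-LKO livers and 0.9842 to 1.159 in WT livers, with WT 164 and WT 165 highest. Levels of different genes are compared only in FPKM, which is divided by transcript length. Nfil3 stood at 3.33, 6.22, 6.14 and 3.35 CPM in E4bp4-LKO livers, against 11.4, 8.78, 12.1 and 16.5 CPM in WT livers. Its log2 fold change was -1.35 (SE 0.25, edgeR adjusted p = 0.0121; exact two-sided permutation p = 0.0286, the smallest that 70 arrangements can give), and each E4bp4-LKO liver lay below each WT liver. Summed FPKM of 6 hepatocyte markers was 39500 to 47360 in E4bp4-LKO livers and 35610 to 42500 in WT livers. Of these 6, 1 was called higher in E4bp4-LKO livers and 5 did not pass, with a median log2 fold change of 0.19. None was called without E4bp4-LKO 144, 145 or 179 or without WT 165.

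Of the 60 members, 40 had enough counts to be tested (24 ligands and 16 receptors). In E4bp4-LKO livers 11 members were lower than in WT livers and 1 was higher at an adjusted p under 0.05 in edgeR's quasi-likelihood test, and 28 did not pass. Over all 13244 genes tested, 858 were lower, which is 6.48% of those tested, and 578 were higher, which is 4.36%; of the tested members, 27.5% were lower. The lower ligands were Ccl2, Ccl6, Ccl7, Ccl9, Cx3cl1, Cxcl14 and Cxcl16, the lower receptors were Ccr1, Ccr2, Cx3cr1 and Cxcr4, and the higher member was Cxcl13. In the files their Entrez Gene IDs are 20296 for Ccl2, 20305 for Ccl6, 20306 for Ccl7, 20308 for Ccl9, 20312 for Cx3cl1, 57266 for Cxcl14, 66102 for Cxcl16, 12768 for Ccr1, 12772 for Ccr2, 13051 for Cx3cr1, 12767 for Cxcr4 and 55985 for Cxcl13. Scaling by library totals moved the median of all log2 fold changes by -0.158 and gave 13 lower members and 1 higher, beside 1660 lower and 291 higher genes in all. With TMM, 26 of the 40 estimates were below 0, and the median log2 fold change was -0.338 over the 40 tested members and 0.00943 over all genes tested. Groups did not overlap for 12 members that were lower in every E4bp4-LKO liver and for 1 that was higher, against 9.68% and 8.81% of all genes tested. Of those 12, Ccl7, Cxcl2, Cxcl5 and Ccr1 exceeded the low-count filter's level of 0.346 CPM (before TMM scaling) in under 4 E4bp4-LKO libraries. They passed the filter through the WT group, where they were high, which limits what their lack of overlap can show. The same limit holds for Ccl7 and Ccr1 in the 11 lower members and in the share of 27.5%. Cxcl13, the 1 higher member, exceeded that level in no WT library and passed through the E4bp4-LKO group.

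The count of lower members depended on single livers. It was 2 without E4bp4-LKO 144, 3 without E4bp4-LKO 179, 5 without E4bp4-LKO 145 and 6 without E4bp4-LKO 143. On the WT side it was 6 without WT 164, 3 without WT 165, and 10 without either WT 166 or WT 167. Without both WT 164 and WT 165 it was 1, Ccl6, while the count over all genes was then 205 lower and 182 higher. The count over all genes also depended on single livers. From 858 lower with all 8 livers it went to 271 without E4bp4-LKO 144, 422 without E4bp4-LKO 145 and 828 without E4bp4-LKO 143. Over the 8 fits that left out 1 liver it ran from 271 to 932. All 12 called members kept their direction in each of the 8 fits that left out 1 liver. WT 164 was the highest of the 8 livers for 10 of the 11 lower members, and WT 167 was the lowest of the WT livers for 7 of them.

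**Figure D1:**
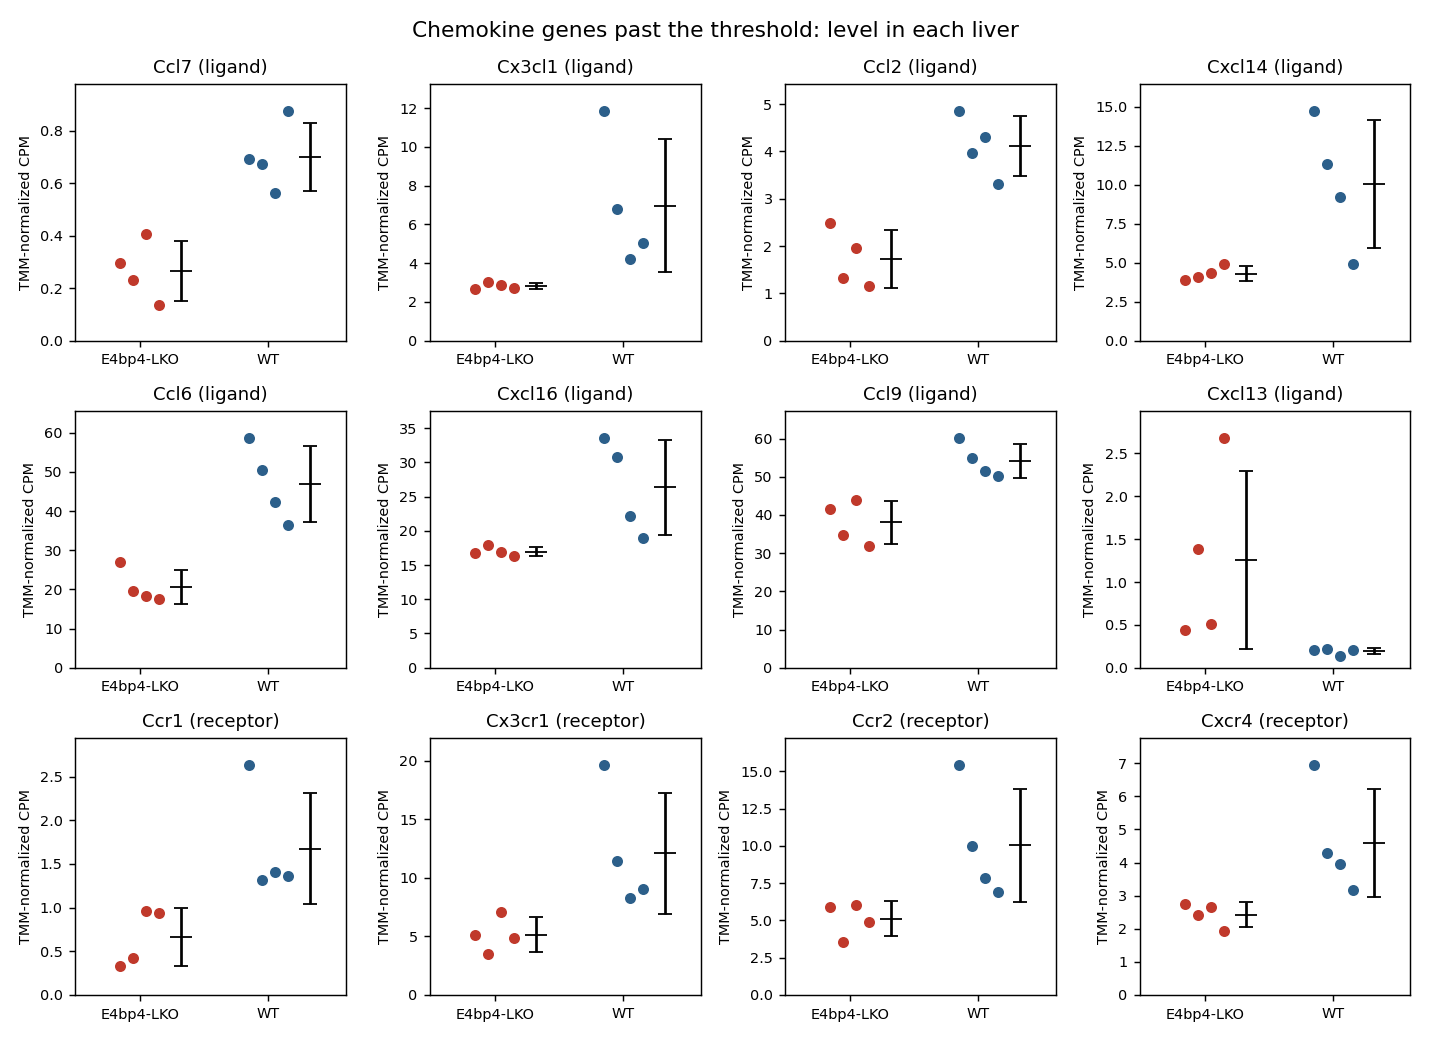
CPM after TMM scaling (vertical axes, from 0, each gene on its own scale) in each liver for the 12 members that passed the test, with the 4 E4bp4-LKO livers (red) left of the 4 WT livers (blue) and the mean ± SD beside each group. The groups overlap only for Cxcl14, where E4bp4-LKO 179 had 4.91 CPM and WT 167 had 4.89 CPM, and Cxcl13 is the only gene with its E4bp4-LKO livers above its WT livers.

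Among CC ligands, Ccl6 and Ccl9, which in mice bind Ccr1 and are made largely by myeloid cells, held the highest FPKM after Cxcl12. E4bp4-LKO livers had 27.0, 19.6, 18.3 and 17.6 CPM of Ccl6, against 58.6, 50.5, 42.3 and 36.3 CPM in WT livers. Every E4bp4-LKO liver lay below every WT liver, and the means of 20.6 ± 4.36 CPM in E4bp4-LKO and 46.9 ± 9.71 CPM in WT (SD, n = 4 each) gave a log2 fold change of -1.19 (SE 0.17, edgeR adjusted p = 0.00482), or 2.27-fold lower. Ccl9 stood at 41.6, 34.8, 43.8 and 31.9 CPM in E4bp4-LKO livers, against 60.1, 55.0, 51.5 and 50.1 CPM in WT livers. Its groups did not overlap either, but its log2 fold change was smaller at -0.51 (SE 0.11, edgeR adjusted p = 0.0150), and its expected counts were fractional in all 8 libraries, so that some of its reads were shared with other transcripts. Ccl6 passed without any 1 liver (highest adjusted p = 0.0202), and Ccl9 did not pass without E4bp4-LKO 144 (adjusted p = 0.0557). Together the 2 genes held 52.12%, 41.98%, 40.12% and 38.85% of the summed FPKM of all Ccl genes in E4bp4-LKO livers, against 58.97%, 59.85%, 52.48% and 53.84% in WT livers.

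Ccl9 and Ccl6 lie next to each other on mouse chromosome 11, on the minus strand of GRCm38.p6, and the 250 bases before each gene's annotated start are shown because the 2 neighbours were both lower. The sequences are from RefSeq (GRCm38.p6), read 5′ to 3′ on the gene's strand, and capitals mark a match to an NF-kB motif (GGG, any 3 bases, TTCC), which on this strand appears as its reverse complement.
Ccl6, chr11:83593088-83593337: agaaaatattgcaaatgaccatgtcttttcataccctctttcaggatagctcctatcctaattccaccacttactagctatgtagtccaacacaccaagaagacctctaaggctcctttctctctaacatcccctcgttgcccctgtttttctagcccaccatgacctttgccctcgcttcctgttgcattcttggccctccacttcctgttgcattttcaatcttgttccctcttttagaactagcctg
Ccl9, chr11:83578637-83578886: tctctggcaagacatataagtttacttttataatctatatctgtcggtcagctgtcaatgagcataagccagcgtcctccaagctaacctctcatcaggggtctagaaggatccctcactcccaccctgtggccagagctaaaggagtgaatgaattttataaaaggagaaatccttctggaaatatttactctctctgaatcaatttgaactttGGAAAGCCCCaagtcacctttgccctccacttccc
The Ccl9 window holds 1 match, 35 bases before the start, and the Ccl6 window holds none. Both windows are of similar base composition, with 45.2% and 43.6% G and C for Ccl6 and Ccl9.

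Ccl2 (MCP-1) and Ccl7 (MCP-3), the monocyte attractants that bind Ccr2, were also lower. E4bp4-LKO livers held 2.48, 1.32, 1.95 and 1.16 CPM of Ccl2, against 4.85, 3.97, 4.31 and 3.32 CPM in WT livers. No E4bp4-LKO liver reached the lowest WT liver, and the log2 fold change was -1.25 (SE 0.24, edgeR adjusted p = 0.0111), or 2.38-fold lower, passing without any 1 liver (highest adjusted p = 0.0417). Ccl7 was scarcer, with expected counts of 8, 7, 11 and 3 in E4bp4-LKO libraries, against 24, 22, 16 and 25 in WT libraries. Again the groups did not overlap, with 0.266 ± 0.114 CPM in E4bp4-LKO and 0.700 ± 0.13 CPM in WT (SD, n = 4 each), a log2 fold change of -1.36 (SE 0.35, edgeR adjusted p = 0.0330). Ccl7 exceeded the filter's level in 4 WT libraries but in 1 E4bp4-LKO library. It thus entered the test through the group where it was high, and its call and lack of overlap carry that limit. The call of Ccl7 held only without E4bp4-LKO 145 or without WT 166, and in the other 6 fits the adjusted p reached up to 0.0997. Ccl12, the mouse MCP-5 whose gene lies close by, had expected counts of 3, 1, 3 and 0 in E4bp4-LKO libraries and 8, 2, 7 and 6 in WT libraries, too few for a test.

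Of the other CC ligands, 9 were tested and did not pass. Ccl5 (RANTES), a T cell and macrophage product that binds Ccr1, had 3.40, 4.54, 7.17 and 8.43 CPM in E4bp4-LKO livers, against 5.63, 5.76, 6.84 and 4.37 CPM in WT livers. Its groups overlapped throughout, and the log2 fold change of 0.05 (SE 0.26, edgeR adjusted p = 0.924) was -0.11 when libraries were scaled by their totals. Ccl3 (MIP-1 alpha), which also binds Ccr1, had 0.888, 1.28, 0.698 and 1.29 CPM in E4bp4-LKO livers, against 2.31, 1.68, 1.72 and 0.979 CPM in WT livers, where WT 167 fell within the E4bp4-LKO range (log2 fold change -0.69, SE 0.30, edgeR adjusted p = 0.163). Ccl4 (MIP-1 beta), Ccl19, Ccl21a, Ccl22, Ccl24, Ccl25 and Ccl27a had log2 fold changes between -0.41 (Ccl22) and 0.67 (Ccl21a), of which Ccl4 was negative on library totals and Ccl21a on log2(FPKM + 0.1). Ccl27a, a ligand best known from skin and the highest of these 7 in FPKM, had 3.77, 5.56, 4.85 and 4.68 CPM in E4bp4-LKO livers, against 3.78, 4.21, 3.33 and 4.51 CPM in WT livers, with overlap (log2 fold change 0.25, SE 0.16, edgeR adjusted p = 0.323). Per length it stood at 7.96 ± 1.03 FPKM in E4bp4-LKO livers and 7.36 ± 0.811 FPKM in WT livers (SD, n = 4 each). Ccl21a, Ccl21b and Ccl21c, and likewise Ccl27a and Ccl27b, are near-identical copies among which reads were split, so their separate values are uncertain.

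Cx3cl1 (fractalkine), the membrane-anchored ligand of the CX3C family that can be shed, and its receptor Cx3cr1 of monocytes and macrophages were both lower. Cx3cl1 stood at 2.66, 3.03, 2.87 and 2.72 CPM in E4bp4-LKO livers, against 11.8, 6.80, 4.21 and 5.03 CPM in WT livers. The 4 E4bp4-LKO livers were close together and below every WT liver, while WT 164 was far above the other WT livers, and the log2 fold change was -1.31 (SE 0.29, edgeR adjusted p = 0.0221), or 2.48-fold lower. Cx3cr1 had 5.11, 3.46, 7.09 and 4.86 CPM in E4bp4-LKO livers, against 19.6, 11.5, 8.31 and 9.09 CPM in WT livers. The highest E4bp4-LKO liver lay just under the lowest WT liver, and the log2 fold change was -1.25 (SE 0.30, edgeR adjusted p = 0.0329), or 2.37-fold lower. Cx3cl1 lost its call when E4bp4-LKO 144, 145 or 179 or WT 165 was left out (adjusted p up to 0.0618), and Cx3cr1 when E4bp4-LKO 143, 144 or 179 or WT 165 was left out (adjusted p up to 0.0868).

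The 250 bases before the start of both genes are given as the ligand and the receptor of 1 exclusive pair that were lower together (RefSeq, GRCm38.p6, 5′ to 3′ on the gene's strand). None of the 3 motifs searched is in either window.
Cx3cl1, plus strand, chr8:94771930-94772179: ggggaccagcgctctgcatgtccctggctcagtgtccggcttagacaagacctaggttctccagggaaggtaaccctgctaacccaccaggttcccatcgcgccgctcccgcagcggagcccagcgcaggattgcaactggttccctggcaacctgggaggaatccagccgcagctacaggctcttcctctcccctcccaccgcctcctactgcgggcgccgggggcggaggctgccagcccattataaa
Cx3cr1, minus strand, chr9:120068297-120068546: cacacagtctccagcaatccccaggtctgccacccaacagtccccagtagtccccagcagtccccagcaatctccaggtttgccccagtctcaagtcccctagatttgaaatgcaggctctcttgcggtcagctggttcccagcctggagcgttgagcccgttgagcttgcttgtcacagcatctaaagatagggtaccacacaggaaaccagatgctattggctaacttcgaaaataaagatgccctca
The Cx3cl1 window is the richer in G and C, at 64.8%, against 53.6% in the Cx3cr1 window.

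Among CXC ligands, Cxcl14 and Cxcl16 were lower and Cxcl13 was higher. Cxcl14 (BRAK), a ligand of epithelia and fibroblasts, had 3.85, 4.05, 4.34 and 4.91 CPM in E4bp4-LKO livers, against 14.7, 11.3, 9.22 and 4.89 CPM in WT livers. WT 167 lay inside the E4bp4-LKO range and the other WT livers lay above it, with a log2 fold change of -1.23 (SE 0.28, edgeR adjusted p = 0.0247), or 2.35-fold lower. Cxcl16, a membrane-bound ligand of Cxcr6 that also takes up oxidised lipoprotein, had 16.7, 17.9, 16.8 and 16.4 CPM in E4bp4-LKO livers, against 33.5, 30.7, 22.1 and 19.0 CPM in WT livers. The E4bp4-LKO livers again formed a narrow band below every WT liver, with a log2 fold change of -0.64 (SE 0.16, edgeR adjusted p = 0.0335), or 1.55-fold lower. Neither passed without any 1 of the 4 E4bp4-LKO livers or without WT 165, and Cxcl16 did not pass without WT 164 either (adjusted p up to 0.0772 for Cxcl14 and 0.0941 for Cxcl16).

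Cxcl13 (BLC), which guides B cells into lymphoid follicles through Cxcr5, was the 1 member higher in E4bp4-LKO livers. Its expected counts were 12, 42, 14 and 60 in E4bp4-LKO libraries, against 7, 7, 4 and 6 in WT libraries, and it is the only tested member that exceeded the filter's level of 0.346 CPM in no WT library. E4bp4-LKO 144 and 179 were the highest, the groups did not overlap, and the means were 1.25 ± 1.04 CPM in E4bp4-LKO and 0.191 ± 0.0345 CPM in WT (SD, n = 4 each), a log2 fold change of 2.66 (SE 0.60, edgeR adjusted p = 0.0231). Because it passed the filter only through the group where it was high, it could enter the test only if it differed. It did not pass without E4bp4-LKO 144, WT 164 or WT 165 (adjusted p up to 0.0634). Of 6 tested B and plasma cell markers 1 was higher, Jchain (log2 fold change 1.95, SE 0.43, edgeR adjusted p = 0.0239). Jchain did not pass without E4bp4-LKO 144, WT 165 or WT 166 (adjusted p up to 0.0697). The other 5 did not pass, and the list's median log2 fold change was 0.08. Fits that left out 1 liver gave -0.47 to -0.23 for Cd79a, -0.37 to -0.0089 for Ms4a1 and 0.71 to 1.28 for Mzb1. The 7 markers summed to 4.22 to 9.32 FPKM in E4bp4-LKO livers and 3.15 to 6.25 FPKM in WT livers. The part of B lineage cells in the Cxcl13 value was not tested.

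The upstream window of Cxcl13 is shown because it was the 1 member that was higher (RefSeq, GRCm38.p6, 5′ to 3′, none of the motifs searched, 42.0% G and C).
Cxcl13, plus strand, chr5:95956689-95956938: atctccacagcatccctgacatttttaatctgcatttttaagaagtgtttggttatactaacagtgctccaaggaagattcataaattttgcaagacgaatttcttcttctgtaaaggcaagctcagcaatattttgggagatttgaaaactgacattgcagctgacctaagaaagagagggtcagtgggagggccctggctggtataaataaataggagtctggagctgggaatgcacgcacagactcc
It lies on chromosome 5 with 9 other members, and of the 8 members tested there no other passed.

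The highest member in FPKM was Cxcl12 (SDF-1), the ligand of Cxcr4 and Ackr3 that stromal cells and sinusoidal endothelium make. It stood at 269, 328, 306 and 323 CPM in E4bp4-LKO livers, against 298, 242, 276 and 281 CPM in WT livers. Its groups overlapped, and the log2 fold change was 0.16 (SE 0.096, edgeR adjusted p = 0.315) with TMM and -0.0031 with library totals, so its sign turns on the scaling. Cxcl12 held 52.79%, 58.81%, 53.15% and 55.93% of the summed ligand FPKM in E4bp4-LKO livers, against 44.96%, 42.06%, 45.48% and 49.84% in WT livers. Without it, the ligands summed to 90.4, 84.37, 99.69 and 93.46 FPKM in E4bp4-LKO livers, against 177.4, 147.1, 133.6 and 113.7 FPKM in WT livers. On this scale, which carries no TMM correction, the groups did not overlap and WT 164 was at the top.

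Interferon-induced and neutrophil-attracting CXC ligands gave no call. Cxcl9 (MIG), which binds Cxcr3 on T and NK cells, had 25.0, 14.0, 33.4 and 49.1 CPM in E4bp4-LKO livers, against 27.7, 24.7, 30.5 and 27.6 CPM in WT livers, a wide spread around a narrow one (log2 fold change 0.13, SE 0.32, edgeR adjusted p = 0.837, with a negative sign on library totals). Cxcl1 (KC), a ligand of Cxcr2 on neutrophils, had 5.11, 7.21, 6.25 and 2.99 CPM in E4bp4-LKO livers, against 6.88, 7.69, 6.10 and 7.20 CPM in WT livers, with E4bp4-LKO 179 lowest (log2 fold change -0.36, SE 0.22, edgeR adjusted p = 0.312). Cxcl2 (MIP-2) and Cxcl5 (LIX), which share that receptor, did not overlap between the groups but missed the threshold in edgeR with TMM. Both passed in limma on log2(FPKM + 0.1). Each exceeded the filter's level in 4 WT libraries but in 2 E4bp4-LKO libraries, so both entered the test through the group where they were high. Cxcl2 had 0.407, 0.296, 0.367 and 0.357 CPM in E4bp4-LKO livers, against 0.520, 0.671, 1.09 and 0.420 CPM in WT livers (log2 fold change -0.91, SE 0.36, edgeR adjusted p = 0.124). Cxcl5 had 0.333, 0.395, 0.404 and 0.268 CPM in E4bp4-LKO livers, against 0.722, 0.763, 0.596 and 0.594 CPM in WT livers (log2 fold change -0.92, SE 0.28, edgeR adjusted p = 0.0595). Cxcl10 (IP-10) had 5.51, 4.61, 6.83 and 6.87 CPM in E4bp4-LKO livers and 5.43, 6.74, 10.6 and 7.13 CPM in WT livers, ranges that overlapped (log2 fold change -0.33, edgeR adjusted p = 0.333). Cxcl11 is annotated as a transcribed pseudogene in the RefSeq table used here and did not pass either.

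**Figure D2:**
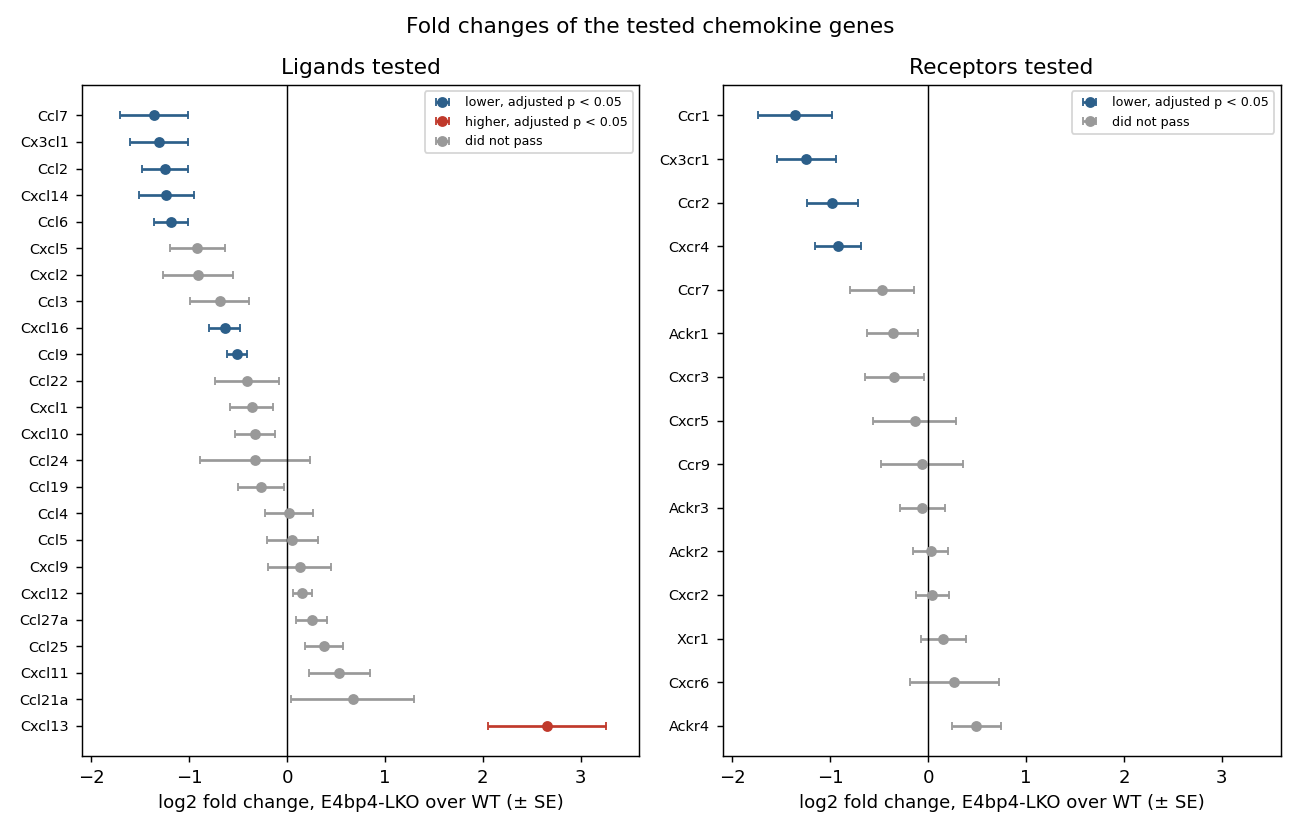
Log2 fold change (E4bp4-LKO over WT, horizontal axis) with bars of 1 SE for the 24 ligands (left) and 15 of the receptors (right) that were tested, blue for lower, red for higher and grey for those that did not pass. All called genes lie left of 0 except Cxcl13 at 2.66, and the estimates that did not pass lie on both sides of 0.

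On the receptor side, Ccr2, which lets inflammatory monocytes respond to Ccl2 and Ccl7, was lower in E4bp4-LKO livers. It had 5.92, 3.52, 6.06 and 4.91 CPM there, against 15.4, 9.97, 7.85 and 6.89 CPM in WT livers. Every E4bp4-LKO liver lay below every WT liver (log2 fold change -0.98, SE 0.26, edgeR adjusted p = 0.0407, 1.97-fold lower). Ccr1, the receptor of Ccl3, Ccl5, Ccl6, Ccl7 and Ccl9 on monocytes and neutrophils, had 0.333, 0.428, 0.955 and 0.937 CPM in E4bp4-LKO livers, against 2.63, 1.31, 1.40 and 1.36 CPM in WT livers. Here too the groups did not overlap (log2 fold change -1.36, SE 0.38, edgeR adjusted p = 0.0443), with WT 164 well above the other WT livers. Ccr1 exceeded the filter's level in 4 WT libraries and in 3 E4bp4-LKO libraries. Cxcr4, the receptor of Cxcl12 on many leukocytes, had 2.74, 2.40, 2.65 and 1.92 CPM in E4bp4-LKO livers, against 6.93, 4.30, 3.96 and 3.18 CPM in WT livers. It lay lower in each E4bp4-LKO liver (log2 fold change -0.92, SE 0.24, edgeR adjusted p = 0.0348, 1.89-fold lower). These 3 calls rested on few livers: Ccr2 passed only without WT 166 or WT 167, Ccr1 only without WT 167, and Cxcr4 only without E4bp4-LKO 143, WT 166 or WT 167, with adjusted p up to 0.107, 0.128 and 0.0920 for Ccr2, Ccr1 and Cxcr4 in the other fits.

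Cxcr2, the neutrophil receptor of Cxcl1, Cxcl2 and Cxcl5, had 4.70, 3.75, 4.85 and 3.39 CPM in E4bp4-LKO livers, against 4.10, 4.88, 3.68 and 3.53 CPM in WT livers, which overlapped throughout (log2 fold change 0.04, SE 0.17, edgeR adjusted p = 0.898, negative on library totals). The lymphocyte receptors were sparse. Cxcr5 had 0.666, 0.527, 0.441 and 0.758 CPM in E4bp4-LKO livers and 1.10, 0.214, 0.666 and 0.629 CPM in WT livers, and Cxcr6 had 0.999, 0.494, 0.294 and 0.357 CPM in E4bp4-LKO livers and 0.636, 0.275, 0.596 and 0.280 CPM in WT livers. In both, the groups overlapped, and the SE of the log2 fold change (0.42 for Cxcr5, 0.45 for Cxcr6) leaves a change of moderate size undetectable at this depth.

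None of the 4 atypical receptors passed. Ackr2, a scavenger of inflammatory CC chemokines, had 4.51, 3.06, 2.90 and 3.39 CPM in E4bp4-LKO livers, against 3.61, 3.11, 2.95 and 3.95 CPM in WT livers (log2 fold change 0.03, edgeR adjusted p = 0.946, negative on library totals). Ackr1, which carries chemokines across venular endothelium, had 1.26, 1.15, 1.03 and 0.669 CPM in E4bp4-LKO livers, against 1.70, 1.46, 1.09 and 1.05 CPM in WT livers (log2 fold change -0.36, edgeR adjusted p = 0.406). Ackr3, a scavenger of Cxcl12, had 1.37, 1.32, 1.76 and 1.78 CPM in E4bp4-LKO livers and 1.88, 1.10, 1.79 and 1.71 CPM in WT livers, with both groups in the same range (log2 fold change -0.06, edgeR adjusted p = 0.900). Ackr4, which binds Ccl19, Ccl21 and Ccl25, had a log2 fold change of 0.49 (edgeR adjusted p = 0.221).

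Textbook pairing in mouse gave 63 ligand and receptor pairs with both partners in the files, of which 39 had both partners tested. Both partners were lower in 6 pairs, Ccl6, Ccl7 and Ccl9 with Ccr1, Ccl2 and Ccl7 with Ccr2, and Cx3cl1 with Cx3cr1, and no pair had both partners higher. In 3 pairs only the receptor was called (Ccr1 with Ccl3 or Ccl5, and Cxcr4 with Cxcl12), and in 5 only the ligand was called lower (Cxcl16 with Cxcr6, and Ccl2 and Ccl7 each with Ackr1 and Ackr2). Cxcl13 was called higher while its receptor Cxcr5 was not called, and 24 pairs had neither partner called. Since the 6 pairs are built from 5 ligands and 3 receptors, they are not independent of each other. None of these 3 receptors was called without E4bp4-LKO 143, 144 or 179 or without WT 165. In those fits none of the 6 pairs had both partners called. Of their partners, Ccl7 and Ccr1 passed the low-count filter through the WT group, where they were high. In mean FPKM, Ccl2 stood at 2.09 in E4bp4-LKO livers and 5.58 in WT livers, above its receptor Ccr2 at 1.33 in E4bp4-LKO livers and 2.99 in WT livers. Cx3cl1 was below its receptor in both groups, at 0.845 FPKM for the ligand and 1.28 FPKM for Cx3cr1 in E4bp4-LKO livers, and 2.39 and 3.46 FPKM in WT livers.

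**Figure D3:**
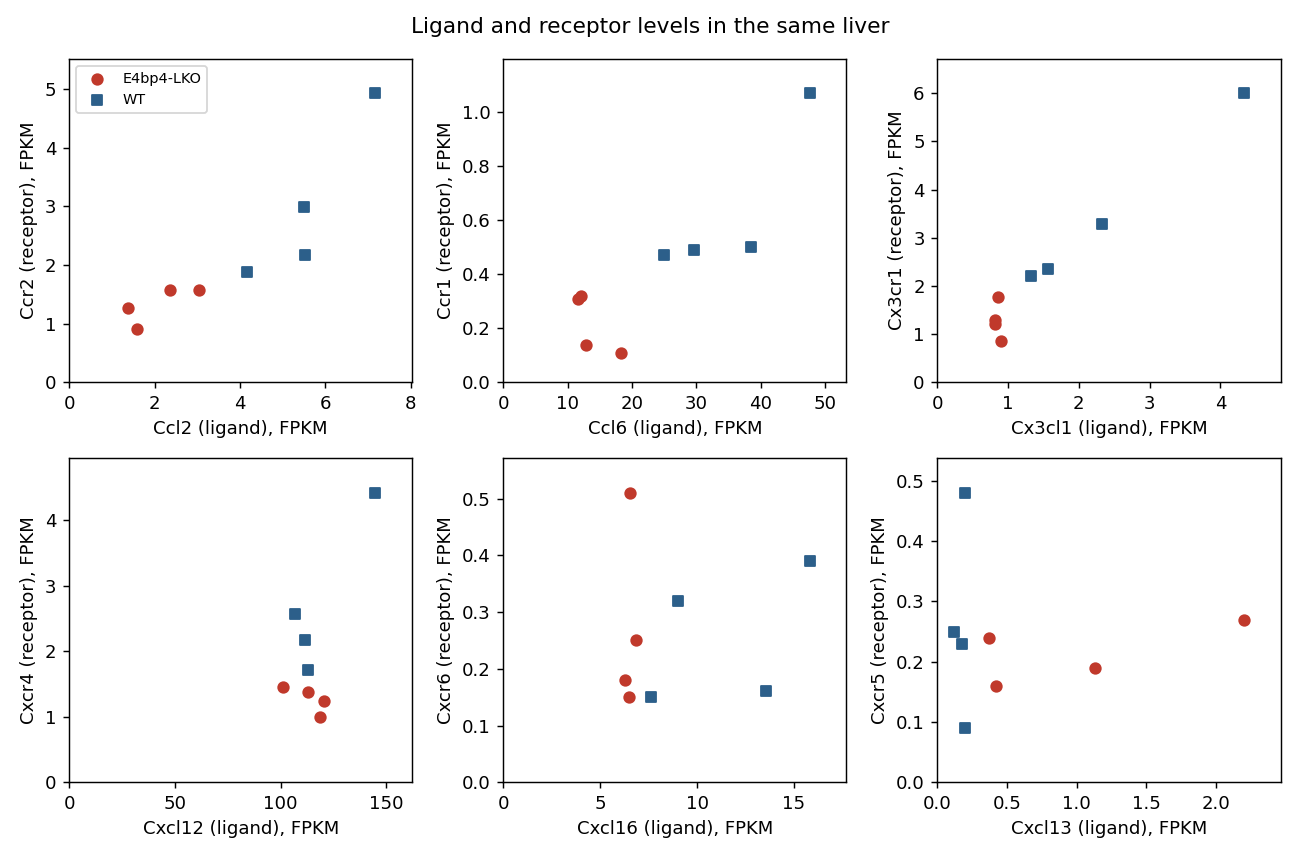
FPKM of the ligand (horizontal axis) and of the receptor (vertical axis) in each liver for 6 pairs with a called partner, E4bp4-LKO as red circles and WT as blue squares. For Ccl2 with Ccr2, Ccl6 with Ccr1 and Cx3cl1 with Cx3cr1 the E4bp4-LKO livers lie left of and below the WT livers, for Cxcl12 with Cxcr4 they lie below the WT livers only, and for Cxcl16 and Cxcl13 the receptor values overlap.

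Summed over all 22 receptors, FPKM was 16.99, 11.94, 15.31 and 13.18 in E4bp4-LKO livers, against 34.97, 23.33, 18.91 and 17.37 in WT livers. The groups did not overlap on this scale, but E4bp4-LKO 143 and WT 167 were close to each other, and WT 164 held the highest sum. Because these sums carry no TMM correction, the narrow gap is not read as a separation of the groups.

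Members at the counting floor, taken as 3 expected counts or fewer in a library (0.0929 to 0.126 CPM of the library total), were counted per library. In all 8 libraries 5 members were at the floor: Ccl1 and its receptor Ccr8, Ccl17, Cxcl15 and Cxcl17. Another 13 exceeded 3 counts in 1 to 7 libraries and were not tested, namely Ccl8, Ccl11, Ccl12, Ccl20, Ccl21b, Ccl21c, Ccl28 and Cxcl3 among ligands and Ccr3, Ccr4, Ccr6, Ccr10 and Cxcr1 among receptors. Ccl27b and Xcl1 exceeded 3 counts in every library and still missed the filter. Ccl11 (eotaxin), a ligand of Ccr3, had expected counts of 1, 4, 0 and 1 in E4bp4-LKO libraries, against 10, 10, 5 and 7 in WT libraries, which do not overlap but were too few for a test. Ccl8 (MCP-2) had 0, 1, 10 and 4 counts in E4bp4-LKO libraries, against 25, 5, 3 and 7 in WT libraries, where WT 164 alone was high. For Ccl20 and Ccr6, the pair that guides lymphocytes to epithelia, the highest count was 4 for Ccl20 and 11 for Ccr6. The number of the 60 members at the floor was 13, 13, 15 and 16 in E4bp4-LKO libraries, against 9, 12, 14 and 10 in WT libraries. For a member at the floor no difference was detectable at this depth.

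**Figure D4:**
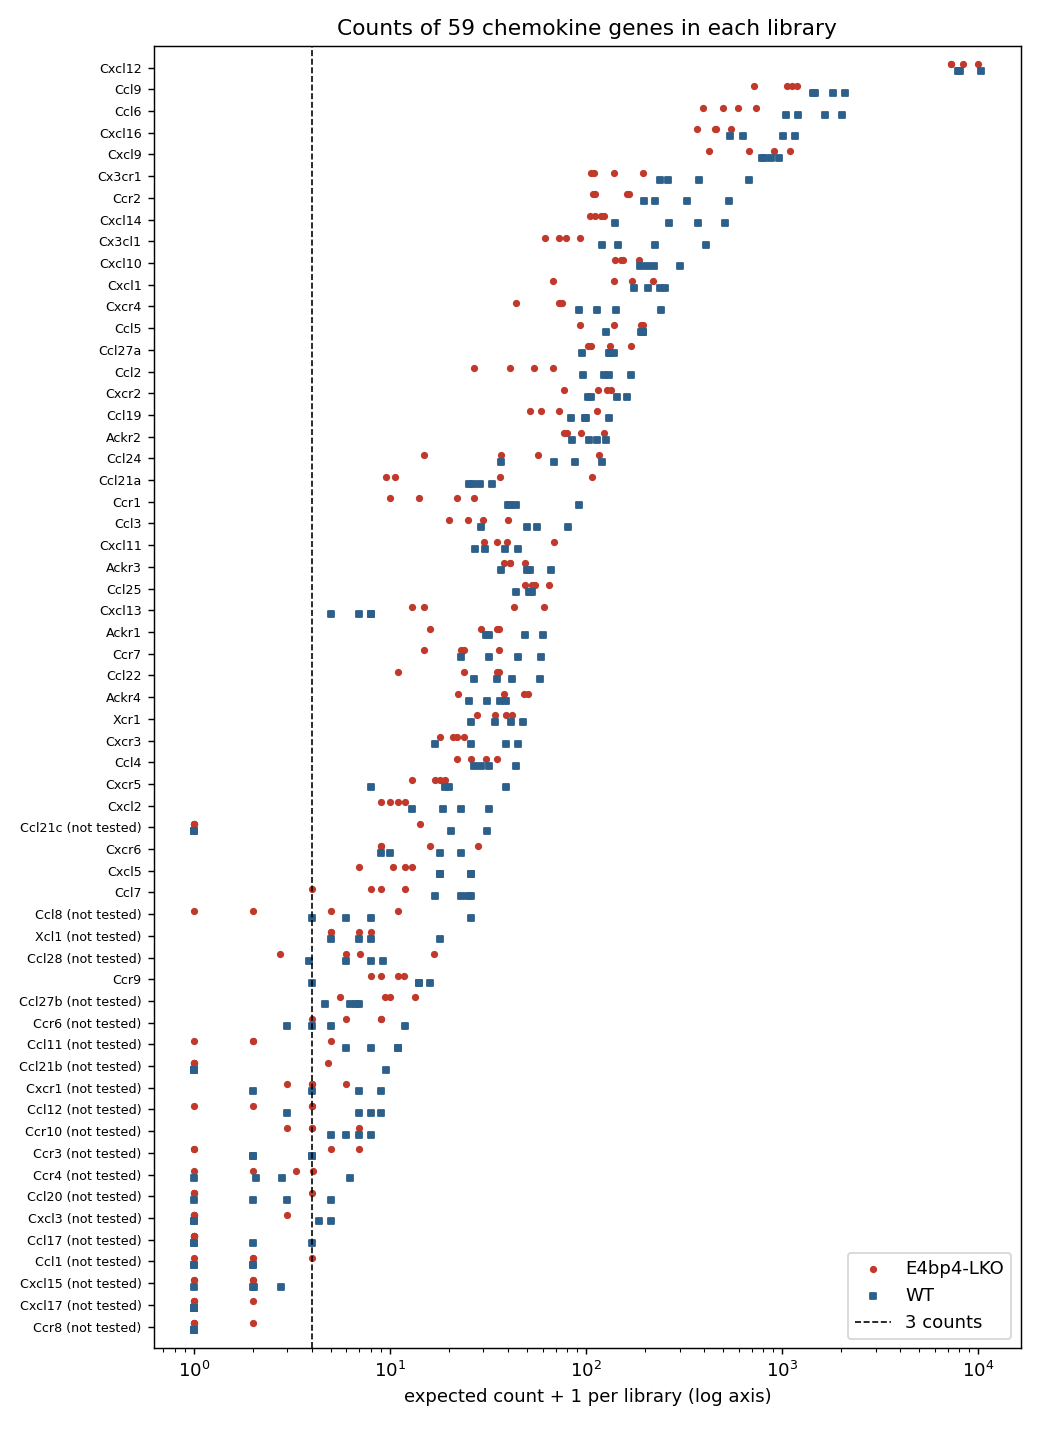
Expected count plus 1 (log axis) of 59 members in each library, with members down the page, E4bp4-LKO as red circles above WT as blue squares, and a dashed line at 3 counts. The 5 members at the bottom (Ccl17, Ccl1, Cxcl15, Cxcl17 and Ccr8) stay on or left of the line in all 8 libraries, and Ccl11 lies right of it in all WT libraries and in 1 E4bp4-LKO library.

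By position in RefSeq (GRCm38.p6), 14 members lie on chromosome 11, of which 9 were tested and 5 were lower. Their order is Cxcl16, then Ccl2, Ccl7, Ccl11, Ccl12, Ccl8 and Ccl1, then Ccl5, Ccl9, Ccl6, Ccl3 and Ccl4, then Ccr7 and Ccr10. The lower Ccl9 and Ccl6 thus sit between Ccl5 and Ccl3, which did not pass. On chromosome 9, 13 members lie, of which 10 were tested and 3 were lower (Cx3cr1, Ccr1 and Ccr2). Fractional expected counts, which arise where reads are shared between transcripts, were found for 23 of the 60 members, among them the called Ccl9, Cxcl16, Ccr2 and Cx3cr1.

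RefSeq windows of 250 bases before the start were matched for 45 of the 60 members (52 windows, since a gene can have several starts), 9 of them called. The D-box that E4BP4 is known to bind, searched as TTACGTAA or TTATGTAA on both strands, was in 0.931% of all 32851 windows of the table and in 1 member window (1.92% of 52), that of Ccr6, which was not tested. The NF-kB motif (GGG, any 3 bases, TTCC) on both strands was in 4.65% of all windows and in 9 member windows (17.3%), those of Ccl1, Ccl9, Ccl20, Ccr3, Ccr6, Cxcl1, Cxcl2, Cxcl3 and Cxcl10. Cxcl1, Cxcl2 and Cxcl3 share the letters GGGAATTTCC, which start 71, 97 and 73 bases before the start of Cxcl1, Cxcl2 and Cxcl3. An interferon response motif (GAAA, any 2 bases, GAAA) on both strands was in 2.98% of all windows and in those of Ccl19, Cxcl10 and Cxcl14 (5.77%). A match describes letters only, and its absence says that they are not in this window.

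Genes around the chemokine system were counted in lists chosen with earlier results of these data known. Their counts stand beside 6.48% lower and 4.36% higher among all genes tested, and no list was tested as a set. Of 35 tested genes of signalling below chemokine receptors, 8 were lower, 0 were higher and 27 did not pass. Rgs1, which shortens chemokine receptor signals by speeding GTP hydrolysis, had 3.07, 1.55, 1.98 and 1.47 CPM in E4bp4-LKO livers, against 5.55, 5.80, 6.17 and 3.95 CPM in WT livers, without overlap (log2 fold change -1.41, SE 0.24, edgeR adjusted p = 0.00717). Mapk3 (ERK1) had a log2 fold change of -0.43 (SE 0.069, edgeR adjusted p = 0.00553), and Rgs1 and Mapk3 passed without any 1 liver. Gnai2 and Gnb1, subunits of the coupled G protein, had log2 fold changes of -0.33 and -0.29 (edgeR adjusted p = 0.0254 and 0.0328), calls that were lost when E4bp4-LKO 144, 145 or 179 was left out (adjusted p up to 0.0681 for Gnai2 and 0.0979 for Gnb1) and, for Gnb1, also when WT 164 or WT 165 was. The list's count ran from 2 lower, without E4bp4-LKO 144, 145 or 179, to 10 lower, without E4bp4-LKO 143 or WT 167, with 3 without WT 164 or WT 165 and 5 without WT 166.

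Of 23 tested inducers of chemokine genes (cytokines, their receptors, NF-kB and AP-1 subunits), 3 were lower and 20 did not pass. Among all genes tested 6.48% were lower. Jun, an AP-1 subunit, had 50.9, 35.9, 40.4 and 40.2 CPM in E4bp4-LKO livers, against 66.8, 57.2, 80.3 and 77.4 CPM in WT livers, without overlap (log2 fold change -0.75, SE 0.13, edgeR adjusted p = 0.00741, passing without any 1 liver). Nfkb2 (log2 fold change -0.48, edgeR adjusted p = 0.0182) and Tnfaip3 (-0.58, edgeR adjusted p = 0.0202) are an NF-kB subunit and an inhibitor induced by it; Nfkb2 did not pass without E4bp4-LKO 144 (0.0584), and Tnfaip3 not without E4bp4-LKO 144 or 179 or WT 165 (up to 0.0609). The count was 1 without E4bp4-LKO 144 and 2 without E4bp4-LKO 179 or WT 165. Of 13 tested genes that bind or trim chemokines, 1 was lower and 2 were higher, beside 6.48% and 4.36% of all genes tested. With so few calls, nothing is read from these counts. Mmp12, the macrophage elastase that cleaves chemokines, had 25.0, 18.7, 14.0 and 9.86 CPM in E4bp4-LKO livers, against 72.1, 76.7, 53.0 and 37.4 CPM in WT livers, without overlap (log2 fold change -1.82, SE 0.31, edgeR adjusted p = 0.0121, passing without any 1 liver). The higher genes were Ndst1, which makes heparan sulfate, and Sdc2, which carries it (log2 fold changes 0.30 and 0.33, edgeR adjusted p = 0.0294 and 0.0366), and neither was called on library totals or without E4bp4-LKO 144, 145 or 179, WT 165 or WT 166, nor Sdc2 without WT 164 (adjusted p up to 0.0842 for Ndst1 and 0.107 for Sdc2). Chemokine-like genes outside the naming pattern had 5 lower, 1 higher and 9 that did not pass, with a median log2 fold change of -0.41. The count was 0 lower without E4bp4-LKO 144 or WT 165, and 1 lower without E4bp4-LKO 145 or 179 or WT 164. With 1 liver left out, C5ar1 had -1.42 to -0.93, Cd74 -1.04 to -0.65 and Cmklr1 -0.59 to -0.39. The higher gene, Cmtm6 (log2 fold change 0.36, edgeR adjusted p = 0.00924), was called in each of those fits but not on library totals.

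Some lists of cell type markers held several lower genes, and others held few or none. In bulk liver, fewer cells of a type and less RNA per cell cannot be told apart. Counts of the marker lists below stand beside 6.48% lower and 4.36% higher among all genes tested. Where a list gave 1 or 2 calls, nothing is read from that count. The summed FPKM of each list carries no TMM correction and weighs abundant genes most, so no separation of the groups is read from it. Of 11 tested markers of monocytes and monocyte-derived macrophages, the cells that carry Ccr1, Ccr2 and Cx3cr1, 7 were lower, 0 were higher and 4 did not pass, with Ccr2 itself in the list. The list's median log2 fold change was -0.98, and its summed level was 192 to 216 FPKM in E4bp4-LKO livers, against 302 to 795 FPKM in WT livers. Trem2, a marker of lipid-associated macrophages, had 3.48, 2.70, 4.63 and 2.94 CPM in E4bp4-LKO livers, against 18.3, 11.3, 8.48 and 6.78 CPM in WT livers, without overlap (log2 fold change -1.71, SE 0.31, edgeR adjusted p = 0.0114). Spp1 (osteopontin), also counted among cholangiocyte markers, had a log2 fold change of -1.76 (edgeR adjusted p = 0.00924), and Plac8 -0.82 (edgeR adjusted p = 0.0166); all 3 passed without any 1 liver. The list's count was 3 without E4bp4-LKO 144, 145 or 179 or WT 165, 5 without WT 164, and 6 or 7 in the other fits. The part of these cells in the lower chemokine values was not tested.

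Other immune lists were counted in the same way. Of 8 resident Kupffer cell markers 1 was lower, Cd5l (log2 fold change -0.56, SE 0.11, edgeR adjusted p = 0.0123), and 7 did not pass. Markers of this list went both ways, with a median log2 fold change of -0.08. In the fits that left out 1 liver, Timd4 had 0.86 to 1.33, Marco 1.38 to 2.15 and Cd163 0.77 to 1.52. The list summed to 147 to 234 FPKM in E4bp4-LKO livers and 219 to 294 FPKM in WT livers. Neutrophil marker Ly6g and T cell marker Trac were not analysed here. None of the 9 tested T and NK cell markers passed, with 6.04 to 8.98 FPKM in E4bp4-LKO livers and 5.38 to 8.74 FPKM in WT livers. Neutrophil markers, of which 4 were tested, gave 1 call, Elane, a granule gene of immature cells (log2 fold change 1.90, SE 0.37, edgeR adjusted p = 0.0114). The others did not pass, and the median log2 fold change of the neutrophil list was -0.15. With 1 liver left out, Csf3r had -0.60 to -0.27, S100a8 -0.73 to 0.38 and S100a9 -0.75 to 0.28. Neutrophil markers summed to 5.05 to 15.5 FPKM in E4bp4-LKO livers and 5.50 to 19.4 FPKM in WT livers. Of 8 dendritic cell markers 2 were lower, H2-Ab1 and Itgax, and 6 did not pass. Itgax is also counted among the monocyte and macrophage markers. Neither was called without E4bp4-LKO 143, 144 or 179, WT 164 or WT 165, and Itgax not without E4bp4-LKO 145. The list's median log2 fold change was -0.16. Fits that left out 1 liver gave -0.30 to -0.11 for Clec9a and 0.05 to 0.38 for Zbtb46. The list's summed level, which carries no TMM correction, was 56.6 to 95.9 FPKM in E4bp4-LKO livers, against 99.6 to 238 FPKM in WT livers. With 6 of 8 markers not passing, this gap is not read as a change of the list.

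Among structural cells, stellate cell and myofibroblast markers had 4 lower of 9 tested (Col3a1, Lum, Lrat and Col1a2) and summed to 58.7 to 89.4 FPKM in E4bp4-LKO livers, against 107 to 296 FPKM in WT livers. That count was 0 without E4bp4-LKO 144 or 179 or WT 165, and 1 without E4bp4-LKO 143 or 145. Cholangiocyte markers, which include Spp1 as their 1 lower gene of 6 tested, summed to 49.3 to 67.3 FPKM in E4bp4-LKO livers, against 129 to 376 FPKM in WT livers. The other 5 did not pass. The median log2 fold change of this list was -1.21, but -0.58 without WT 164 and -0.28 without WT 164 and WT 165 together. Endothelial markers gave no call among 9, with 77.1 to 121 FPKM in E4bp4-LKO livers and 86.9 to 102 FPKM in WT livers. The part of these cells in the values of Cxcl12, Cxcl14 and Cx3cl1 was not tested.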

How the data were processed

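Whole-liver RNA of 8 mice was sequenced. Per the labels' protocols, mRNA was enriched by oligo-dT or by removal of ribosomal RNA, and cDNA was primed with random hexamers. Reads were aligned with HISAT2, per the submitters' processing notes; the sources used here do not give its version, the quantifier, strand setting, genome build or annotation. The deposited expected counts are estimated by the authors per gene and not normalized, and 25.9% to 27.3% of entries are fractional. The deposited FPKM values are divided by the authors for transcript length and depth. Each library carries its own mouse number in the labels and was taken as 1 animal.

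Genes missing from a library were read as 0. Expected counts were rounded and tested in edgeR 4.0.16 (R 4.3.3): filterByExpr (minimum count 10, total 15), TMM, and glmQLFTest after a robust glmQLFit (two-sided), with Benjamini-Hochberg adjustment over 13244 genes and a threshold of 0.05. Each SE belongs to the log2 fold change beside it. The test was checked on simulated counts. Alternatives used DESeq2 1.42.0 and limma 3.58.1 on log2(FPKM + pseudocount). No 2 libraries of a group were copies (lowest chi-square per degree of freedom 7.52). Floors cover counting error only. Members and lists were chosen with earlier results of these data known. Full values are given for called members, tested members whose groups do not overlap, the 8 ligands and 8 receptors highest in FPKM, and partners of called members; from each list, for up to 4 genes with the smallest p. 1 member is counted in these totals but is not reported here. RefSeq (GRCm38.p6) matched all 60 members.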

Additional observations from a re-analysis of the deposited data

Results flagged for a closer look

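In 58 groups of 4 livers, the highest and the lowest liver were set against the other 3, and 2 groups exceeded Dixon's critical value for 4 samples; chance alone gives about 1 in 20. Ccr1 stood at 2.63 CPM in WT 164, while the other WT livers lay between 1.31 and 1.40 CPM, so that the gap was 0.931 of the group's range. Cxcl13 stood at 0.140 CPM in WT 166, below 0.202 to 0.214 CPM in the other WT livers (0.846 of the range), which rests on 4 counts against 6 or 7.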

How the results depend on the processing

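No paired analysis was possible because the labels give no pairing of animals between the groups. Leaving out 1 liver gave 2 to 10 lower and 0 to 1 higher members, and 271 to 932 lower and 235 to 608 higher genes in all; without WT 164 and WT 165 together, 1 and 0 members and 205 and 182 genes. Nfil3 passed in each of those 8 fits, from -1.50 to -1.17. Lower and higher members were 11 and 1 with DESeq2's size factors or without a filter, 13 and 1 with library totals (1660 lower and 291 higher genes), 12 and 1 with DESeq2 (1267 and 971 genes), 12 and 0 with limma on log2(FPKM + 1) (1449 and 267 genes), 14 and 1 with limma on log2(FPKM + 0.1) (1654 and 285 genes), and 10 and 0 with a filter at 1 CPM in 4 libraries, which left Ccl7 and Cxcl13 untested. Cxcl13 was not called by limma on log2(FPKM + 1). Cxcl5 passed with library totals and both FPKM scales, and Cxcl2 on log2(FPKM + 0.1) (limma adjusted p = 0.0490). Signs turned for 8 members that did not pass. For 5 of them they turned with library totals to -0.13 for Ackr2, -0.11 for Ccl5, -0.0031 for Cxcl12, -0.0264 for Cxcl9 and -0.12 for Cxcr2; on log2(FPKM + 1) to -0.0823, -0.15, -0.0634, -0.13 and -0.0673 for these genes in that order; on log2(FPKM + 0.1) to -0.15, -0.17, -0.0638, -0.16 and -0.11. Ccl4 turned to -0.149, -0.088 and -0.137 and Xcr1 to -0.007, -0.007 and -0.010 under those 3 settings, and Ccl21a to -0.081 on log2(FPKM + 0.1) only. Leaving out 1 liver gave -0.13 to 0.10 for Ackr2, -0.20 to 0.0258 for Ackr3, -0.17 to 0.24 for Ccl5, -0.20 to 0.37 for Cxcl9, -0.0353 to 0.15 for Cxcr2, -0.43 to 0.26 for Cxcr5 and -0.22 to 0.50 for Cxcr6. The cause was not tested. Depth limits the 20 untested members and those under 1 CPM.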
